A study of Mus musculus with 7 samples.

Results

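The prohormone processing genes examined here are 10 genes that cut, trim, amidate or guard peptide hormone precursors: the convertases Pcsk1, Pcsk2, Furin, Pcsk5 and Pcsk6, the convertase helpers and inhibitors Pcsk1n and Scg5, the carboxypeptidases Cpe and Cpd, and the amidating enzyme Pam. They were chosen by function and matched by symbol, and all 10 were found among the 55536 genes of the count table. RNA was sequenced from mouse pancreatic alpha cells, which secrete glucagon, sorted by tomato fluorescence. The 4 control libraries carry the genotype Nkx2.2+/+;Gcg-iCre;Rosa26:tdTomato and the 3 knockout (KO) libraries Nkx2.2fl/fl;Gcg-iCre;Rosa26:tdTomato, so both groups carry a Cre recombinase driven from the glucagon gene and a tdTomato reporter that Cre switches on. Only in the KO genotype can Cre also delete both copies of Nkx2-2, a homeodomain transcription factor of islet cells. The strain is written C57B1/6J in the design text, which also writes the reporter locus as Rosa25, and the age of the mice is not given in the sources used here. Nothing in the labels says whether a library came from a single animal or from pooled animals, so p-values measure the spread between these libraries, which may be partly technical. The reporter marks cells that have made Cre at any time, and a Cre of this kind can leave part of the cells undeleted. One KO column of the table carries a number that no KO title has, and is called the unnumbered KO library. Values of single libraries are listed in a fixed order: controls 1, 2, 3 and 4, then KO 1, KO 2 and the unnumbered KO library.

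Peptide hormones are made as long precursors that are cut in the trans-Golgi network and in secretory granules at pairs of basic residues. Prohormone convertase PC1/3 (Pcsk1) and PC2 (Pcsk2) make these cuts in endocrine cells, carboxypeptidase E (Cpe) removes the basic residues left behind, and peptidylglycine alpha-amidating monooxygenase (Pam) amidates the ends of some products. The balance of both convertases sets the products of proglucagon: PC2, the main convertase of alpha cells, releases glucagon, whereas PC1/3, typical of beta cells and intestinal L cells, releases glucagon-like peptide 1. The proSAAS protein (Pcsk1n) inhibits PC1/3, and the 7B2 protein (Scg5) is needed to bring PC2 to its active form.

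Among these genes, Pcsk1 was higher and Pcsk1n, which encodes the PC1/3 inhibitor, was lower in the KO libraries, while Pcsk2 had no difference past the threshold. The libraries of sorted cells also held transcripts typical of other islet cells, described below, such as Ins2 with a control mean of 357925 normalized counts. With an adjusted p under 0.05 over all genes tested in DESeq2 as the threshold, 1 of the 10 genes was higher in KO (Pcsk1, 1.80-fold), 1 was lower (Pcsk1n, to 0.607 of the control level) and 8 did not pass. Among all 17571 genes tested, 4.51% passed, 2.24% higher and 2.27% lower in KO. The quasi-likelihood test of edgeR gave no adjusted p under 0.05 for any of the 10 (count 0, against 1.05% of 19310 genes), and 3 of the 10 (Pcsk1, Pcsk1n and Cpe) had an unadjusted p under 0.05 there, as did 10.5% of all genes. In DESeq2 4 of the 10 did (Scg5 besides these), and 12.2% of all genes tested. Normalized counts of both groups were fully apart for 2 of the 10 genes, again Pcsk1 and Pcsk1n, and for 12.0% of all genes tested. Pcsk1 was the 1 gene of the set with every KO library above the controls (6.07% of all genes tested) and Pcsk1n the 1 with every KO library below them (5.94%). The median log2 fold change, KO over control, was 0.10 over the 10 genes and 0.01 over all genes tested.

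**Figure D1:**
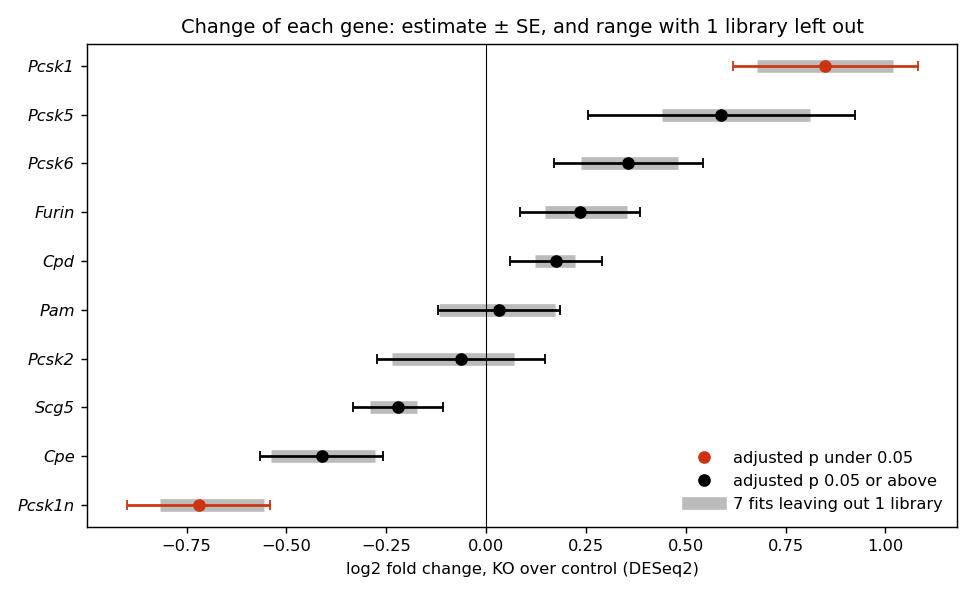
DESeq2 log2 fold change, KO over control, of each of the 10 genes, with its standard error (thin bar) and the range of the estimate over 7 fits that each left out 1 library (grey band). Pcsk1 at 0.85 and Pcsk1n at -0.72 passed the threshold (red), and the 8 genes in black did not.

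Library totals ran from 45483504 to 72456557 counts. Nkx2-2, the targeted gene, had 8596, 11199, 12297 and 9782 normalized counts (counts over DESeq2 size factors) in controls against 7758, 7534 and 7694 in KO cells. All KO libraries were below all controls, and the transcript was still counted in each of them; the deleted part of the gene is not given in the sources used here, so its remaining reads do not measure how many cells lost it. Its log2 fold change was -0.45 (adjusted p 0.0218 in DESeq2, 0.152 in edgeR), and it passed in 2 of 7 DESeq2 fits that each left out 1 library. The opposite-strand gene Nkx2-2os has exons over 9.67% of the Nkx2-2 exon length, where reads cannot be told apart if strand was not used in counting. Control 4 stood apart. It held the most counts, and genes such as Pcsk2 and Pcsk1 lay 0.88 and 0.83 log2 units below the mean of the other controls there. Control 4 also had 31024 genes with a count, against 23150 to 24153 in the other controls. The unnumbered KO library was the second deepest, with 25873 genes with a count. No label names a batch, and a term that sets the 2 deepest libraries against the other 5 is called a depth term here. The name states only how these 2 libraries were picked. Control 4 had 228561 raw Pcsk2 counts, against 243580 to 259250 in the other controls, although its total was the highest. What sets these 2 libraries apart was not tested.

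The sequences upstream of Pcsk1, Pcsk2 and Pcsk1n are shown because these 3 genes carry the comparison: the convertase that rose, its partner, and its inhibitor that fell. They are RefSeq promoter sequences on GRCm38.p6, plus strand, cut where either RefSeq or GENCODE begins the gene. Capitals mark matches to AAGTG or its reverse complement CACTT, the core that NKX2-2 and its relatives bind, and to TGACG or CGTCA, the half-site of the cAMP response element (CRE), whose full form TGACGTCA holds overlapping half-sites on both strands.
Pcsk1, chr13:75089607-75089825: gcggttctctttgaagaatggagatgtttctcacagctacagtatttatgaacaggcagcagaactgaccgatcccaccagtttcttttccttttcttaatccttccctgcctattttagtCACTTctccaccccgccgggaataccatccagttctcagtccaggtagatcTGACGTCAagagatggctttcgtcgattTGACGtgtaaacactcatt
Pcsk2, chr2:143545883-143546132: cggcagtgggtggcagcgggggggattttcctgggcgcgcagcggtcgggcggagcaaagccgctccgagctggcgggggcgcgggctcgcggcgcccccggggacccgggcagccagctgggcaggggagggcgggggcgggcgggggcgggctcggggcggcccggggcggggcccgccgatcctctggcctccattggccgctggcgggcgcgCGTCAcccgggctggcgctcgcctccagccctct
Pcsk1n, chrX:7919572-7919821: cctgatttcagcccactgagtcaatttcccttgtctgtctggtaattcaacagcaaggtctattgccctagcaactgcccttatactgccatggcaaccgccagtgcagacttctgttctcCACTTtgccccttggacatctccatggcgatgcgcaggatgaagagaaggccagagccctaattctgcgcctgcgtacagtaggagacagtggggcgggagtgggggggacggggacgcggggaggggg

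In windows of 250 bases before the RefSeq start, the Pcsk1 sequence held 1 full CRE, which began 78 bases before the start, and a further half-site that began 50 bases before it. A full CRE was found in 1.55% of 32851 RefSeq promoter windows of this length, and in 1 of the 9 genes of the set that had an entry, Pcsk1. The half-site was present in 17.77% of all windows and in 4 of the 9 genes (Pcsk1, Pcsk2, Scg5 and Furin). The AAGTG core was present in 40.71% of all windows and in 3 of the 9, namely Pcsk1, Pcsk1n and Furin, where Furin had 4 matches in 1 of its 2 windows. In Pcsk1 and in Pcsk1n the core lay 129 to 125 bases before the start. These matches describe letters in the windows and are not measured sites. The windows also differed in base composition, with a GC content of 46.8% for Pcsk1, 57.6% for Pcsk1n and 82.4% for Pcsk2. Cpe had no entry and is named only.

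To compare genes, normalized counts were divided by the summed exon length in kb. In control cells Cpe was the most abundant of the 10 on this scale, at 52344 normalized counts per kb on average, which placed it 12th among the 17718 protein-coding genes with a count. Pcsk1n followed with 43397, Pcsk2 with 33975 and Scg5 with 23006, and the control ranges of each of these neighbours overlapped. Pam came next at 7037 and did not overlap with Scg5 above it or with Furin below it. Furin at 690.1, Cpd at 602 and Pcsk1 at 579 overlapped with each other, Pcsk6 stood apart below them at 209, and Pcsk5 was lowest at 9.83. The convertase PC2 was thus far more abundant in transcripts than PC1/3 in these cells. In KO cells the level of Pcsk1n per kb was below that of Pcsk2 in the mean, at 26356 against 32542, with overlapping ranges. Pcsk1 at 1043 per kb moved above Furin at 812 and Cpd at 680.4, and its KO range of 893 to 1229 did not overlap with the Furin range of 730.3 to 861.

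Pcsk1 (ENSMUSG00000021587, chromosome 13, 75089826 to 75134861, plus strand, GRCm38) encodes PC1/3. Its normalized counts in controls were 3839, 4327, 2789 and 2025, against 6887, 5649 and 5004 in KO cells. Every KO library lay above every control, and control 4 was lowest. The control mean of 3245 ± 1036 (SD, n = 4) rose to 5847 ± 957 (SD, n = 3), which DESeq2 estimated as 0.85 log2 units (SE 0.23, adjusted p 0.00877). In edgeR the estimate was also 0.85 and did not pass (adjusted p 0.177). When libraries were left out one at a time the log2 fold change lay between 0.68 and 1.02, and 5 of the 7 fits passed. The fits that missed it in DESeq2 lacked KO 1 (adjusted p 0.194) or control 3 (0.0649). With the depth term, Pcsk1 passed in DESeq2 (adjusted p 1.74e-07) and in edgeR (0.02), where 7.34% and 3.23% of all genes tested passed. With both libraries removed it passed in DESeq2 (0.78, adjusted p 0.000488), as did 5.53% of all genes tested, and missed the threshold in edgeR (adjusted p 0.0817). The difference was 1.31 log2 units between the 2 deepest libraries and 0.80 among the other 5.

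Pcsk2 (ENSMUSG00000027419, chromosome 2, 143546156 to 143816285, plus strand) encodes PC2, the convertase that releases glucagon. Control cells gave 294130, 297212, 318439 and 165180 normalized counts of Pcsk2, and KO cells 259412, 305151 and 207670. The groups overlapped, and the low values were those of the 2 deepest libraries. Its log2 fold change, -0.06 (SE 0.21), did not pass (adjusted p 0.998 in DESeq2) and had a 95% interval from -0.47 to 0.35, so a difference of up to about that size in either direction is not excluded by these libraries. The estimate was 0.04 with library totals as size factors and 0.02 with the depth term. Without control 4 it was -0.24 (adjusted p 0.43). Exons of the antisense genes Pcsk2os1 and Pcsk2os2 cover 4.54% of its exon length.

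The ratio of Pcsk1 to Pcsk2 counts within a library needs no scaling between libraries. The controls had 13.1, 14.6, 8.76 and 12.3 Pcsk1 counts per 1000 Pcsk2 counts. The KO libraries had 26.5, 18.5 and 24.1. All 3 KO libraries were above all 4 controls, and control 4 lay among the other controls in this ratio although both of its levels were low. The mean ratio was 12.2 ± 2.46 (SD, n = 4) without and 23.1 ± 4.12 (SD, n = 3) with the knockout, a difference of 0.93 on the log2 scale or 1.91-fold. In an exact permutation test, two-sided on the absolute difference of the mean log2 ratio, 1 of 35 splits was as large (p = 0.0286), and no smaller p is possible with 4 and 3 libraries. Pcsk1 counts enter the ratio, so this test is not independent of the Pcsk1 result above. The log2 difference was 0.98 between the 2 deepest libraries and 0.90 among the other 5. Per kb of exon the ratio was 17.2 ± 3.47 Pcsk1 per 1000 Pcsk2 in controls and 32.5 ± 5.81 in KO libraries, so PC2 transcripts remained the large majority in both groups.

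**Figure D2:**
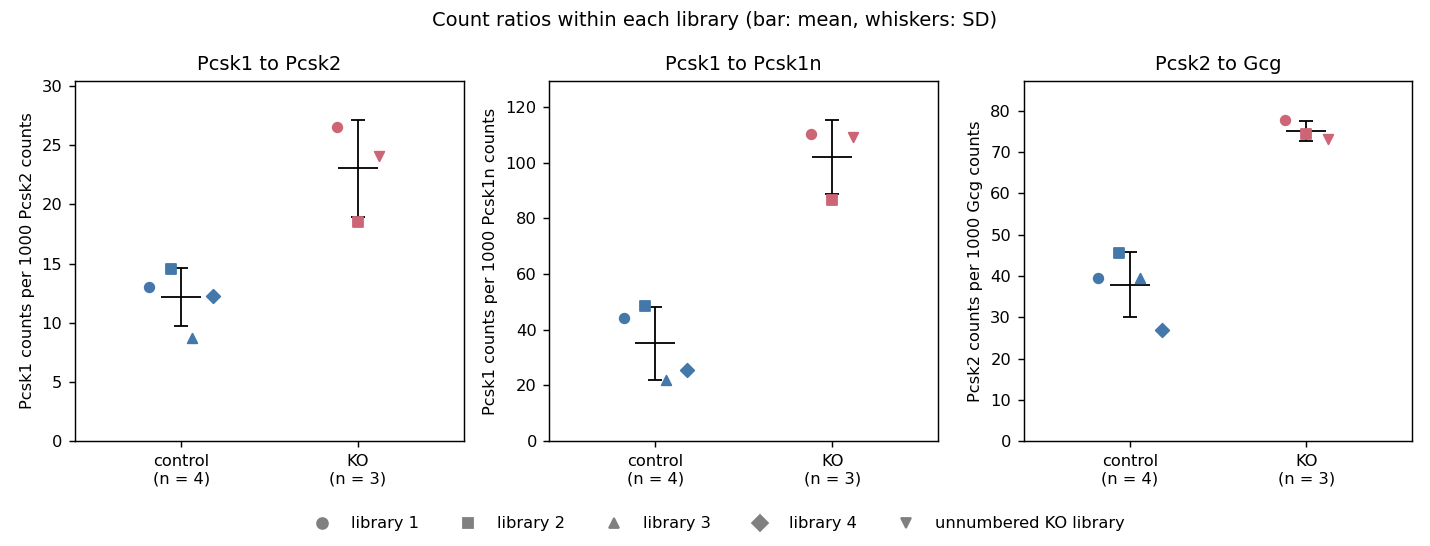
Count ratios in each library, with the group mean (bar) and SD (whiskers): Pcsk1 per 1000 Pcsk2 counts, Pcsk1 per 1000 Pcsk1n counts, and Pcsk2 per 1000 Gcg counts, for 4 control and 3 KO libraries. KO libraries lie above all controls in each panel, from 18.5 to 26.5 against 8.76 to 14.6 in the first.

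Pcsk1n (ENSMUSG00000039278, chromosome X, 7919822 to 7924410, plus strand) encodes proSAAS, the inhibitor of PC1/3. Normalized counts of 86507, 89307, 125987 and 78874 in control cells compared with 62426, 65185 and 45785 in KO cells. Every KO library was below every control, with control 3 the highest of all. The mean fell from 95169 ± 21014 (SD, n = 4) to 57799 ± 10495 (SD, n = 3), or -0.72 log2 units (SE 0.18), which passed in DESeq2 (adjusted p 0.00285) and not in edgeR (0.165). Whichever library was removed, the DESeq2 call held (7 of 7 fits), with estimates from -0.82 to -0.56 and adjusted p-values of at most 0.029. With the depth term it also passed in edgeR (adjusted p 0.0331). Exons of the opposite-strand gene Eras cover 6.16% of its exon length, and reads of both genes cannot be told apart where strand was not used in counting.

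Since Pcsk1 rose and Pcsk1n fell, their ratio moved further than either gene. Per 1000 Pcsk1n counts the controls had 44.4, 48.5, 22.1 and 25.7 Pcsk1 counts and the KO libraries 110.3, 86.7 and 109.3. The controls formed a higher and a lower pair, and all KO libraries stood above both. The log2 difference of 1.61, or 3.05-fold, is given as a description without a test, since both genes were known to differ when the ratio was chosen. In these bulk samples fewer cells of a type and less RNA per cell cannot be told apart.

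Scg5 (ENSMUSG00000023236, chromosome 2, 113776362 to 113829121, minus strand) encodes 7B2, the helper of PC2. Control libraries had 37126, 36701, 39845 and 30716 normalized counts of Scg5 and KO libraries 30562, 32744 and 29652. The KO libraries lay below controls 1, 2 and 3, and control 4 fell among them. DESeq2 gave -0.22 log2 units (SE 0.11), short of the threshold (adjusted p 0.41). Without the 2 deepest libraries it was -0.26 (adjusted p 0.0404), past the threshold. Scg5 counts per 1000 Pcsk2 counts were 126.2, 123.5, 125.1 and 186 in control and 117.8, 107.3 and 142.8 in KO cells. The 3 controls other than control 4 lay close together, and the groups overlapped.

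Cpe (ENSMUSG00000037852, chromosome 8, 64592542 to 64693054, minus strand) encodes carboxypeptidase E, which trims the basic residues after convertase cuts. Cpe had 135378, 137596, 159065 and 114221 normalized counts in the control group, and 105925, 119720 and 82337 in the KO group. Only KO 2 lay above a control, and that control was control 4. At -0.41 log2 units (SE 0.15, 95% interval -0.71 to -0.11) it did not pass (adjusted p 0.119 in DESeq2 and 0.447 in edgeR). It did pass in DESeq2 without control 4 (-0.49, adjusted p 0.0108; 5.28% of all genes tested passed there), without KO 2 (-0.54, 0.0301), without the 2 deepest libraries (-0.35, 0.0201), with a depth term for them (-0.39, 0.000178), and with library totals less Gcg as size factors (-0.41, 0.0193). In these settings the direction was that of the fit with all libraries, and the threshold was passed in 5 of 19 settings. Against Pcsk2 counts of the same library, Cpe had 460.3, 463, 499.5 and 691.5 counts per 1000 in control cells and 408.3, 392.3 and 396.5 in KO cells. The 3 KO libraries were close to each other, and all were below the controls.

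**Figure D3:**
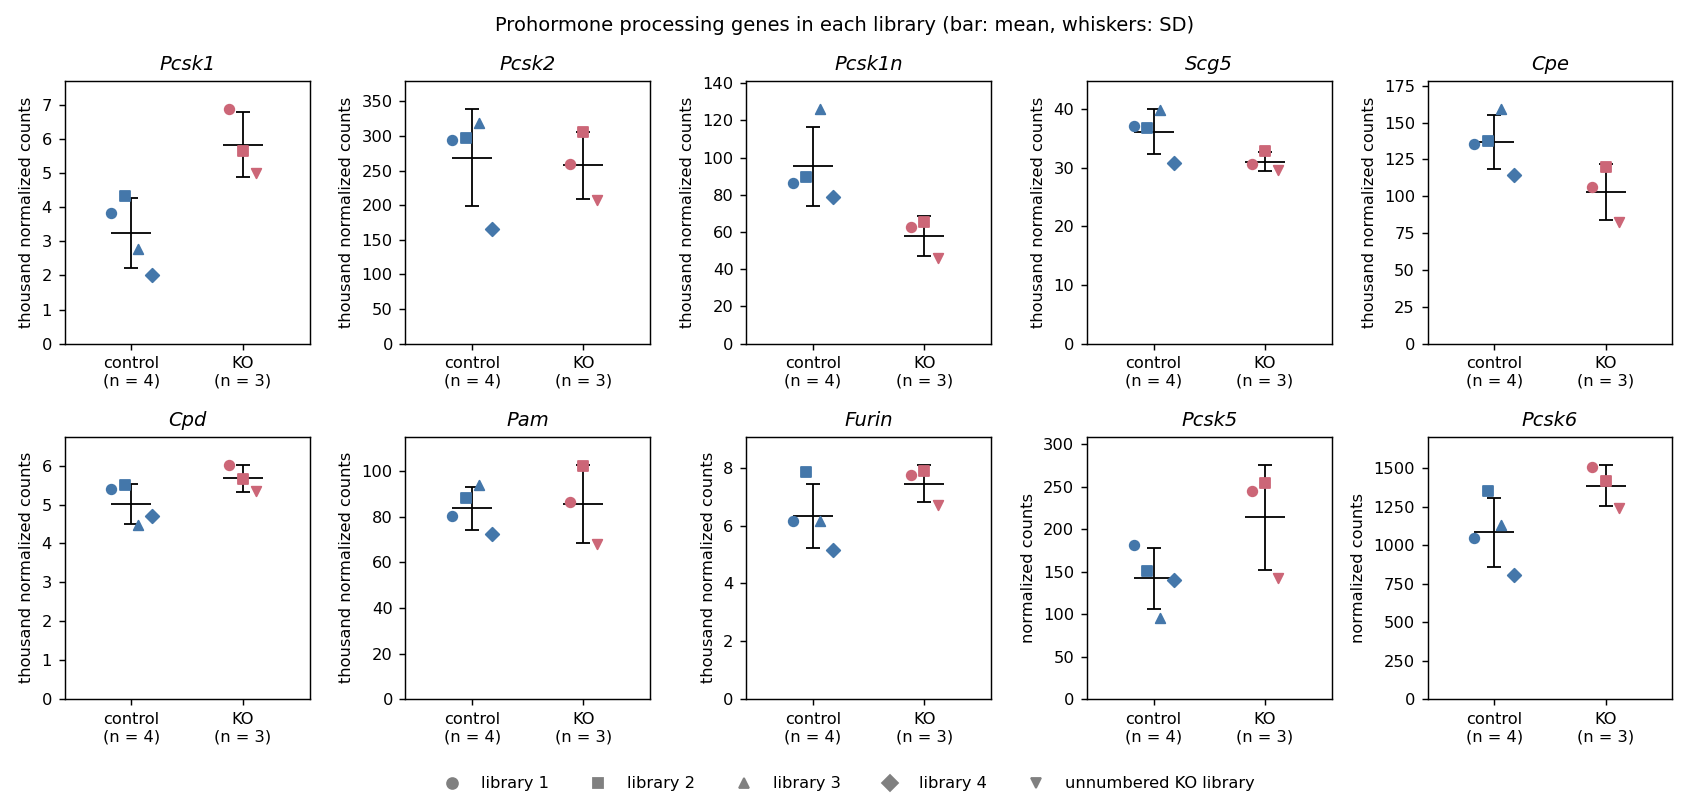
Normalized counts of the 10 genes in each library, with group means (bar) and SD (whiskers), on linear axes from 0. Pcsk1 (KO 5004 to 6887, controls 2025 to 4327) and Pcsk1n (KO 45785 to 65185, controls 78874 to 125987) are the 2 genes whose groups do not overlap.

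Cpd (ENSMUSG00000020841, chromosome 11, 76778424 to 76847018, minus strand) encodes carboxypeptidase D, a membrane enzyme of the trans-Golgi network. It had from 4467 to 5499 normalized counts in controls and from 5341 to 6022 in KO libraries, with an overlap of the lowest KO library with 2 controls. Its estimate of 0.18 log2 units (SE 0.12) did not pass (adjusted p 0.665 in DESeq2), with a 95% interval from -0.05 to 0.40. Pam (ENSMUSG00000026335, chromosome 1, 97795114 to 98095646, minus strand), the amidating enzyme, had 80196, 88240, 93853 and 72466 normalized counts in the controls, and with the knockout 86547, 102389 and 67908. The KO libraries held both the highest and the lowest value. For Pam the estimate was 0.03 log2 units (SE 0.15), which did not pass (adjusted p 0.998 in DESeq2), with a 95% interval from -0.27 to 0.33, and it was -0.03 without control 4 and -0.12 without KO 2.

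Furin, and the convertases that Pcsk5 and Pcsk6 encode, act mostly in the constitutive secretory pathway and at the cell surface. Furin (ENSMUSG00000030530, chromosome 7, 80388585 to 80405436, minus strand) had 6156, 7846, 6171 and 5163 normalized counts in control and 7751, 7903 and 6703 in KO cells. Control 2 lay among the KO libraries, and the other controls were below them. It was estimated at 0.23 log2 units (SE 0.15, 95% interval -0.06 to 0.53) and did not pass in DESeq2 (adjusted p 0.64). Pcsk6 (ENSMUSG00000030513, chromosome 7, 65861734 to 66050386, plus strand) had 1047, 1352, 1131 and 808 normalized counts in controls and 1505, 1418 and 1239 in KO libraries. Control 2 was again the only control within the KO range. Pcsk6 gave 0.36 log2 units (SE 0.19; adjusted p 0.442 in DESeq2), and 0.40 (adjusted p 0.0475) with the depth term. Pcsk5 (ENSMUSG00000024713, chromosome 19, 17432319 to 17837632, minus strand) was the scarcest, with 181.5, 151, 95.4 and 140.2 normalized counts in controls and 245.4, 254.1 and 143 in KO libraries. The unnumbered KO library lay among the controls. The estimate of 0.59 log2 units (SE 0.33; adjusted p 0.526 in DESeq2) had a 95% interval from -0.07 to 1.24. The lowest Pcsk5 library held 73 counts. If these are taken as independent, the exact 95% Poisson interval is 57.2 to 91.8 counts and covers counting error only. Most small counts were even in each library, so counts may not be independent and this interval may be too narrow. In DESeq2 with all 7 libraries, the convertases of the set other than Pcsk2 thus had a positive estimate, and of these Pcsk1 alone passed. The median over all genes tested was 0.01, and estimates from the same libraries are not independent of each other.

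The transcript of the main precursor that these enzymes cut in alpha cells fell. Gcg, the glucagon gene, made up from 11.4% to 13.5% of counts in controls and from 5.87% to 7.39% in KO libraries, and its log2 fold change was -1.04 (adjusted p 6.76e-10 in DESeq2, 0.175 in edgeR). Per 1000 Gcg counts there were 39.6, 45.5, 39.6 and 26.8 Pcsk2 counts in control and 77.8, 74.5 and 73.2 in KO cells. The KO libraries were close together, above every control. For Cpe the values were 18.2, 21.1, 19.8 and 18.5 in controls and 31.8, 29.2 and 29.0 in KO libraries. For Pcsk1 they were 0.517, 0.663, 0.346 and 0.328 in controls and 2.07, 1.38 and 1.76 in KO libraries. The log2 differences were 1.01 for Pcsk2, 0.63 for Cpe and 1.95 for Pcsk1, and the groups did not overlap in any of these ratios. The fall of Gcg enters each of them.

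Of 18 precursors and granins that such enzymes process, 16 received an adjusted p, with a median log2 fold change of 0.47. In DESeq2 4 rose and 2 fell, where 4.51% of all genes tested passed. An unadjusted p under 0.05 was found for 10 of the 18 in DESeq2 and 9 in edgeR, against 12.2% and 10.5% of all genes. Those that rose were the gamma cell hormone genes Ppy (1.51, adjusted p 2.52e-08) and Pyy (1.01, 5.94e-07), the amylin gene Iapp (0.93, 0.00148), whose precursor is cut by PC1/3 and PC2, and the neuropeptide Y gene Npy (3.15, 0.0291). Npy had 1833 normalized counts in control 2, 131.6 to 358.2 in the other controls and 5047 to 6328 in KO cells, and it passed in 1 of the 4 leave-one-out fits that gave it an adjusted p. Besides Gcg, Vgf fell, a granin-like precursor cut by these convertases, from a mean of 1647 ± 130 (SD, n = 4) normalized counts to one of 610.2 ± 188 (SD, n = 3) (log2 fold change -1.43, adjusted p 2.67e-10 in DESeq2 and 0.0137 in edgeR). In edgeR Ppy (0.0474) and Vgf passed among these 18. The granins Chga (0.50, adjusted p 0.171) and Chgb (0.44, 0.117) and the insulin genes Ins1 (0.36, 0.691) and Ins2 (0.34, 0.741), near-identical copies that counting may have split, did not pass in DESeq2.

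Other genes of the pathway were mostly short of the threshold. Among other convertases and cathepsins, Pcsk4 (-0.08), Pcsk7 (0.02) and Mbtps1 (0.15), the site-1 protease, had small log2 fold changes that did not pass, and the cathepsin gene Ctsl had 0.38 (adjusted p 0.152). Of 11 other carboxypeptidases and aminopeptidases, 8 received an adjusted p and 0 passed in DESeq2 or in edgeR, where 1 had an unadjusted p under 0.05 in each. Of 11 genes for end modification and its cofactors, 1 rose in DESeq2 and 0 passed in edgeR. This was Mboat4, the enzyme that acylates ghrelin, with 12.7 ± 15.6 (SD, n = 4) against 167 ± 39.9 (SD, n = 3) normalized counts (log2 fold change 3.72, adjusted p 0.000184 in DESeq2). The copper transporter gene Atp7a (0.25, adjusted p 0.222) and Cyb561 (0.06, 0.998), which supplies electrons to the Pam reaction, did not pass. Of 19 listed vacuolar ATPase subunits, which acidify granules, 18 were found under the symbol used, 0 passed in DESeq2 or edgeR (0 with an unadjusted p under 0.05 in either), and their log2 fold changes ran from -0.21 to 0.22 with a median of -0.05.

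Some markers of other islet cells were also higher in KO cells, and most did not pass. The 12 listed beta cell genes, which were all detected, summed to 375090 to 727232 normalized counts in controls and 569425 to 1016530 in KO libraries. The beta cell sums of both groups overlapped. Of the 12, 3 rose (Iapp, Npy and Glp1r) and 0 fell in DESeq2, 0 passed in edgeR, and 7 had an unadjusted p under 0.05 in each tool. As for all lists here, the shares to set beside counts of genes that passed are 4.51% of all genes in DESeq2 and 1.05% in edgeR. Beside counts at an unadjusted p under 0.05 the shares are 12.2% in DESeq2 and 10.5% in edgeR. The 7 delta cell genes summed to 199590 to 403075 in controls and 360455 to 637146 in KO libraries, again with overlap. Of the 7, 2 were higher in DESeq2 and 0 passed in edgeR, and 4 had an unadjusted p under 0.05 in DESeq2 and 2 in edgeR. The 4 gamma cell genes summed to 309330 to 580204 in controls and 889660 to 1136310 in KO libraries, without overlap. Of the 4, 2 were higher in DESeq2 (Ppy and Pyy) and 1 passed in edgeR. Nearly all of this sum is Ppy and Pyy, with control means of 255710 and 146824. The other 2 genes, Aqp4 (control mean 417, log2 fold change 0.05) and Sertm1 (846, -0.13), did not pass. No marker of these 3 lists was at 0 in all libraries, and Ins2 alone had from 219495 to 463704 normalized counts in controls. The 12 alpha cell genes, which summed to 6486440 to 8478110 in controls and 2974550 to 4293230 in KO libraries, had 8 lower and 0 higher in DESeq2, and 4 passed in edgeR. Among the other lists, in DESeq2, 1 of 7 duct genes was higher (sums 10798 to 14818 in controls, 14024 to 14586 in KO). There 1 of 7 leukocyte genes, C1qa, was lower (979 to 1545, 908.3 to 1040), and 1 of 8 epsilon and enteroendocrine genes was higher (244 to 1930, 2854 to 5361). In edgeR 0 passed in any of these 3 lists, with 3, 2 and 2 at an unadjusted p under 0.05. C1qa, with a control mean of 976, held most of the leukocyte sum in controls. The other leukocyte genes with an adjusted p, Cd68 (log2 fold change 0.51) and Cd74 (1.55), had positive estimates that did not pass. None of the 9 acinar (307 to 12715, 1782 to 6770), 6 endothelial (236 to 453, 281 to 1085), 7 mesenchymal (1405 to 3946, 2313 to 4191) and 5 Schwann cell genes (616 to 982, 689.9 to 825.3) passed in DESeq2 or edgeR, with 0, 2, 0 and 1 at an unadjusted p under 0.05 in DESeq2 and 0, 1, 0 and 1 in edgeR. Within each group the order of the libraries by Pcsk1 was the order by the beta cell sum, with control 2 highest and control 4 lowest among controls and KO 1 highest and the unnumbered KO library lowest among KO libraries.

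**Figure D4:**
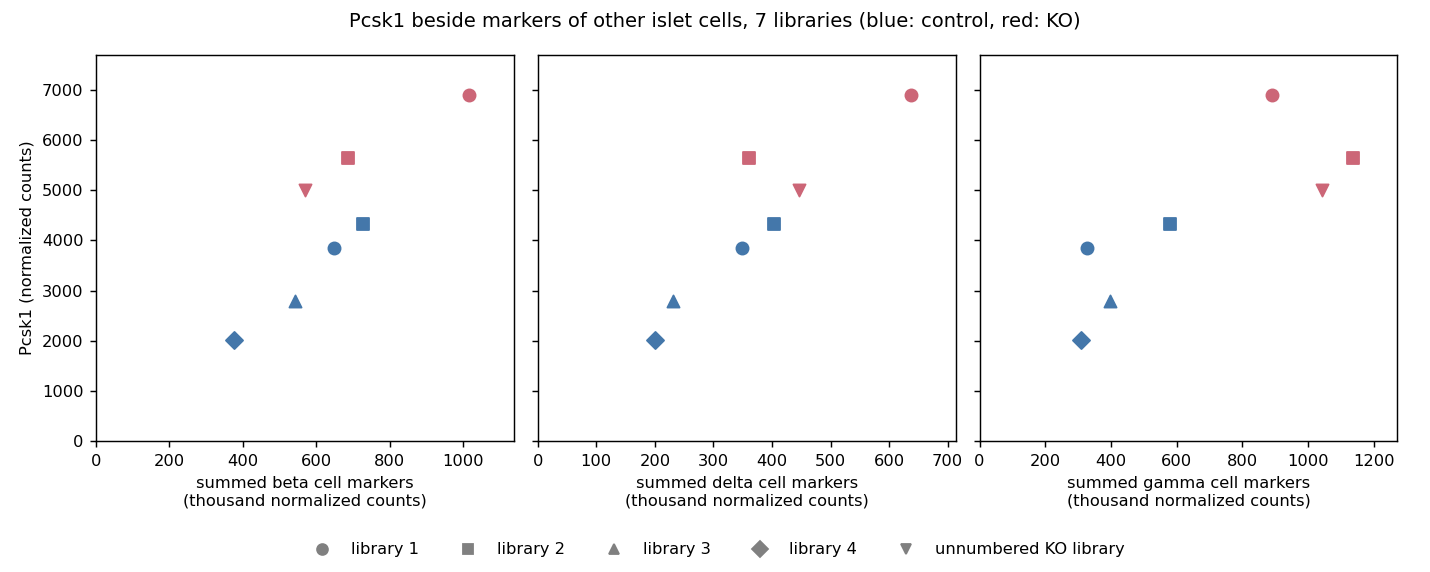
Pcsk1 normalized counts of each library against the summed normalized counts of beta, delta and gamma cell markers in the same library (blue, 4 controls; red, 3 KO libraries). KO libraries lie at 5004 to 6887 on the Pcsk1 axis, above controls of like beta cell sums.

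Per 1000 counts of the beta cell list there were 5.92, 5.95, 5.15 and 5.40 Pcsk1 counts in control and 6.77, 8.24 and 8.79 in KO cells. The controls were close together, and every KO library was above them, a log2 difference of 0.50. Per 1000 counts of Ins1 and Ins2 together, Pcsk1 had 6.28 to 7.33 counts in controls and 8.47 to 11.9 in KO libraries, a log2 difference of 0.55. Most of the beta cell sum is Ins1 and Ins2, with control means of 104198 and 357925, so both ratios rest largely on the same genes. The 12 genes of that list had log2 fold changes from -0.34 to 3.15, with a median of 0.40. Iapp, from this list, had 0.93 against 0.85 for Pcsk1, so Pcsk1 did not rise more than each of these genes. Against the delta cell list the groups overlapped, with 10.1 to 12.1 Pcsk1 counts per 1000 in controls and 10.8 to 15.7 in KO libraries. Against the gamma cell list they overlapped as well, with 6.55 to 11.7 in controls and 4.80 to 7.74 in KO libraries. These ratios are descriptions, and the part of other islet cells in the Pcsk1 result was not tested beyond them.

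By the correlation of log2 normalized counts over the 7 libraries, among 8889 genes with a mean of at least 500 normalized counts, the genes most like Pcsk1 were Slc12a2 (Pearson r 0.992), Ero1lb (0.990), Iapp (0.990), Spock2 (0.989) and Met (0.988). Genes most like Pcsk2 included Taf10 (0.992), Supt16 (0.991), Sap18 (0.990) and Tex261 (0.990). The correlations are a description over 7 libraries that share depth and composition. Of the 5 genes most like Pcsk1, Slc12a2 (log2 fold change 0.69), Iapp and Spock2 (0.84) passed in DESeq2, and of the 4 named beside Pcsk2, 0 did.

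Over 19 other settings, the log2 fold change of Pcsk1 ran from 0.61 to 1.02 and passed in 15, and that of Pcsk1n ran from -0.82 to -0.46 and passed in 17. Both missed the threshold in edgeR with all 7 libraries and without the 2 deepest, and Pcsk1 also without control 3 or KO 1. Pcsk1 and Pcsk1n passed in DESeq2 under each of the 3 other scalings.

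**Figure D5:**
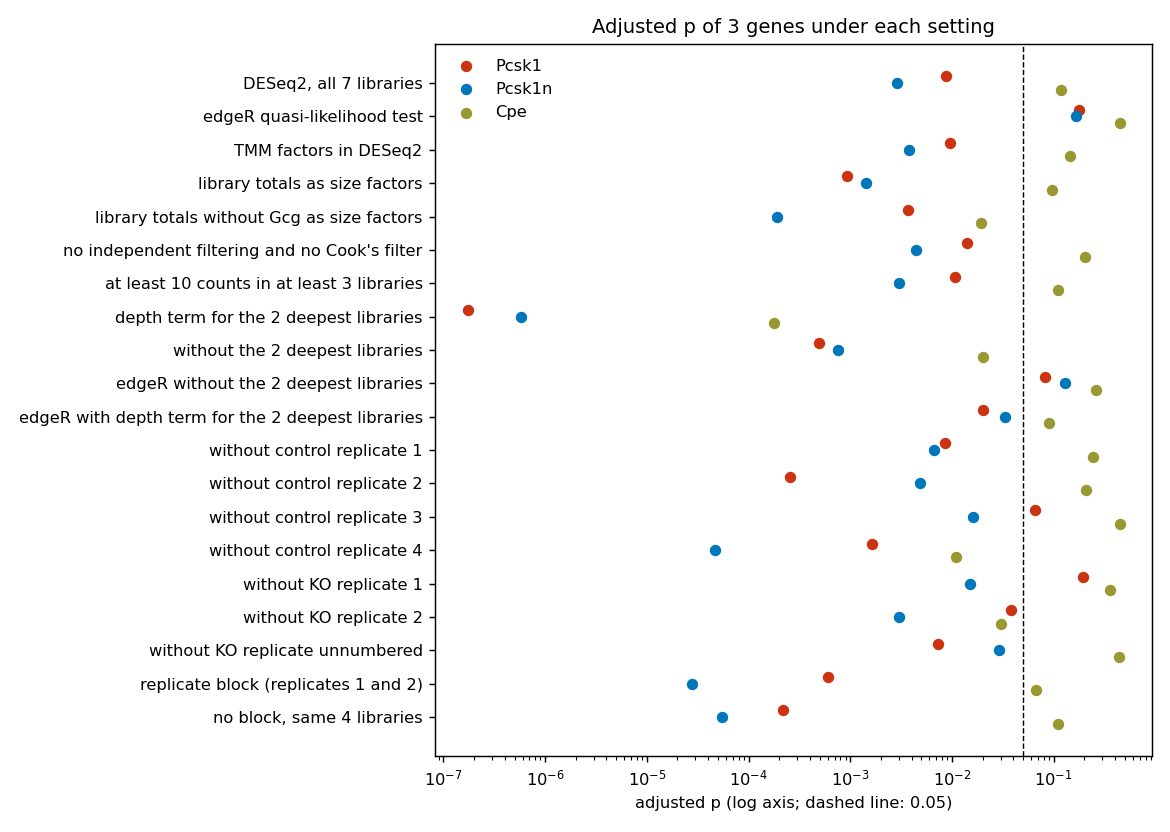
Adjusted p of Pcsk1, Pcsk1n and Cpe (log axis) with all 7 libraries in DESeq2 and under 19 other settings; the dashed line marks 0.05. Pcsk1n passed in 17 and Pcsk1 in 15 of the 19, and both lie right of the line in edgeR with all 7 libraries.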

How the data were processed

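RNA was measured in 4 control and 3 KO libraries of sorted alpha cells, prepared with a strand-marking low-input total RNA kit, per the labels' protocols. The deposited file holds raw, whole-number counts for each gene and library. FastQC, STAR, featureCounts and DESeq2 and the build mm10 are named per the submitters' processing notes. The strand setting is not given in the sources used here. In each library 84.4% to 88.9% of counts from 1 to 10 were even; what 1 count stands for, a read or a pair, is not given in the sources used here. Gene positions and exon lengths are from GENCODE M21 (GRCm38), whose 55536 genes match the table.

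The design text names DESeq2 without batch correction, and KO was compared with control by its Wald test (DESeq2 1.42.0, R 4.3.3), with Benjamini-Hochberg adjustment over all genes tested. The quasi-likelihood test of edgeR 4.0.16 is given beside it. Normalized counts are counts over DESeq2 size factors. Log2 fold changes are KO over control, and 95% intervals are the estimate ± 1.96 standard errors. Ratios used raw counts. Likeness to Pcsk1 or Pcsk2 was Pearson's r of log2(normalized count + 1). Promoters are RefSeq sequences on GRCm38.p6, found for 9 of the 10 genes. Named genes are the 10 genes, Nkx2-2, Gcg, genes of the other pathway lists past the threshold, and the genes most alike; further genes named with values that did not pass were picked as examples. Some genes that this rule would name are not reported here. The members and lists were chosen with earlier results of these data known. Leaving out libraries, other scalings and filters, a depth term and a replicate block were tried. All 7 count columns were used.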

Additional observations from a re-analysis of the deposited data

Results flagged for a closer look

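In groups of 4 controls, 26 values were checked by Dixon's test at the 95% level, which chance passes in about 1 in 20, and 4 had a control that stood apart. Pcsk2 had 165180 normalized counts in control 4, far below the other 3 controls at 294130 to 318439. In the same library the count of Scg5 was 186 per 1000 Pcsk2 counts, against 123.5 to 126.2 in the other controls, and the count of Cpe was 691.5 per 1000 Pcsk2 counts, against 460.3 to 499.5. All 3 rest on the low Pcsk2 count of control 4. Npy had 1833 normalized counts in control 2, against 131.6 to 358.2 in the other controls.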

How the results depend on the processing

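With all 7 libraries DESeq2 called 792 genes and 2 of the 10 processing genes. edgeR called 203 and 0. DESeq2 with the depth term called 1379 genes and 4 of the 10 (Pcsk1, Pcsk1n, Cpe and Pcsk6), and without these libraries 880 and 4 (Pcsk1, Pcsk1n, Scg5 and Cpe). Without them edgeR called 207 and 0, and with the depth term 664 and 2, alternatives chosen after seeing the data. Leaving out 1 library gave 430 (without KO 1) to 910 genes and 1 (without control 3 or KO 1) to 3 of the 10. The log2 difference of the Pcsk1 to Pcsk2 ratio was 0.78 to 1.08 when 1 library was left out and 0.90 without the 2 deepest, where the smallest exact p that the design allows is 0.1 or 0.0667, so neither can pass. With group medians it was 0.93 (exact permutation p = 0.0571). The estimate of Pcsk2 changed sign, to 0.0401 with library totals as size factors, 0.0246 with the depth term in DESeq2 and 0.0283 in edgeR, and ran from -0.236 to 0.0689 when 1 library was left out, and that of Pam from -0.12 to 0.17. None of these passed.

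Replicate numbers 1 and 2 occur in both groups, but nothing in the labels says that they mark a shared animal or day. Deviations from the group means correlated at 0.35 for number 1 and 0.24 for number 2 across genes. For unlike numbers the correlation was 0.18 for control 2 with KO 1 and -0.05 for control 1 with KO 2. With the replicate block on these 4 libraries DESeq2 called 580 genes and 2 of the 10, against 622 and 2 without the block, and the mean difference of the ratio within a number was 0.69. The lowest count of any of the 10 genes in a library was 73, for Pcsk5.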
